A study of Mus musculus with 6 samples.

Results

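Metallothioneins, their transcription factor MTF1 and zinc transporters were followed in embryonic submandibular glands (eSMGs) of mice after treatment with AMD3100, an antagonist of the chemokine receptor CXCR4. The 10 genes were taken by symbol from the count files, whose 23260 rows were each taken as a gene (22 of them repeat the symbol of another row with other counts): Mt1, Mt2, Mtf1, Slc30a1, Slc30a5, Slc30a9, Slc39a1, Slc39a6, Slc39a7 and Slc39a10. All 10 were listed, and all 10 passed the filter on low counts, with 13610 genes in all. They were selected on their roles in zinc handling and on the fold changes and p-values of AMD3100-treated against control eSMGs in these same libraries, so their differences between the groups are given as a description and not as a test.

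Both groups were eSMGs of ICR embryos at embryonic day 14 (E14), kept in organ culture in the same serum-free medium with transferrin and ascorbic acid. No further addition is named for the control group, and the AMD3100 group had 50 µM AMD3100 for 6 h. Each group had 3 tubes of up to 10 pooled glands, and each tube gave a library (replicate). The study's methods describe its results in general as independent experiments done in triplicate, but neither they nor the labels say whether these tubes came from separate litters, so p-values measure only the spread between these tubes. The libraries were read from the 3′ end of each mRNA, so a transcript gives about the same number of reads whatever its length, and levels of different genes are compared in CPM (read counts scaled by library total, TMM-normalized) without division by length. Library totals lay between 9051595 and 14393031 reads counted on genes.

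Cytosolic free zinc is kept low. SLC30 proteins (ZnT) move zinc out of the cytosol, to the outside or into organelles, and SLC39 proteins (ZIP) move it into the cytosol. Metallothioneins, small cysteine-rich proteins, hold zinc and copper. When cytosolic zinc is plentiful, MTF1 takes up zinc, binds metal response elements in DNA, and switches on Mt1, Mt2 and Slc30a1, while Slc39a10 is known as a gene that zinc represses through MTF1 in several cell types.

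The libraries labelled replicate 3 stood apart from the others in both groups. On the first principal component of log2 CPM, which held 38.2% of the variance, control replicate 3 lay at 84.8 and AMD3100 replicate 3 at 80.8, and the 4 other libraries lay between -78.7 and -17.4. On the second, which held 26.3%, control replicate 1 lay at 82.3 and AMD3100 replicate 2 at -87.6, and the other libraries lay between -16.6 and 25.9. The defining markers of the gland were present in every library. Summed over 9 epithelial markers, of which Krt15 was the most abundant, the level was 2146, 2129 and 1470 CPM in control and 2579, 2251 and 3457 CPM in AMD3100-treated eSMGs, so that all 3 AMD3100 libraries were higher. Krt15 itself stood at 1042, 1012 and 888 CPM in control and 1367, 1016 and 2472 CPM in AMD3100, and the sum of the other markers overlapped between the groups (1105, 1118 and 582 against 1213, 1235 and 985 CPM). Within each pair of libraries with the same replicate number, that sum was higher with AMD3100. Of the 9, 7 were higher and 2 lower, and Cdh1 was the 1 marker whose groups did not overlap, beside 7.44% of all genes tested. None of the 9 had an unadjusted p under 0.05 in edgeR. With replicate number added to the edgeR model as a block, Cdh1, Krt14 and Krt15 did, all higher, beside 6.66% of all genes. Summed over 9 mesenchymal markers, led by Col3a1, the level was 3757, 3767 and 1613 CPM in control and 3729, 3640 and 1430 CPM in AMD3100. It was lower with AMD3100 in each same-numbered pair. Of these 9, 2 were higher and 7 lower, with a median log2 fold change of -0.14, and Osr1 was the 1 that was lower without overlap, beside 4.17% of all genes (184, 172 and 170 against 148, 140 and 161 CPM). With the replicate block in edgeR, Twist1 was the 1 with an unadjusted p under 0.05, and it was lower. The 6 skeletal muscle markers, led by Myog, summed to 1301 and 1687 CPM in control and AMD3100 replicate 3, against 266 and 254 CPM in control replicates 1 and 2 and 173 and 139 CPM in AMD3100 replicates 1 and 2. By log2 fold change, Acta1, Actc1, Tnnt1 and Myh3 were higher with AMD3100 (4 of the 6), and Myog and Myod1 were lower (2 of the 6). The median of the 6 was 0.29. Myog, like Mt2, was high in both replicate 3 libraries and lower with AMD3100 in each same-numbered pair (41.1, 39.99 and 521 CPM in control, 13.9, 9.95 and 485 CPM in AMD3100), and so was Myod1. Both had an unadjusted p under 0.05 in edgeR with the replicate block. None of these markers was at 0 in all libraries. The part of these marker levels in the results that follow was not tested, and in whole glands fewer cells of a type and less RNA per cell cannot be told apart.

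Mt1 and Mt2, the metallothioneins that most mouse tissues make, were both lower in every AMD3100 library than in any control library, as were 4.17% of all genes tested. Mt1 stood at 136, 115 and 90.8 CPM in control replicates 1, 2 and 3, from 1549, 1584 and 911 reads. In AMD3100-treated eSMGs it stood at 63.1, 67.6 and 23.9 CPM, from 1096, 733 and 195 reads. AMD3100 replicate 3 was the lowest of the 6, and the groups did not overlap. The means were 114 ± 22.4 and 51.5 ± 24.0 CPM (SD, n = 3 each). On the log2 scale the fold change fitted by edgeR, given here and below with its standard error (SE), was -1.14 (SE 0.41), which is 2.21-fold lower. Without replicate 3 of both groups it was -0.95.

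Mt2 had the larger difference. It stood at 63.4, 61.4 and 203 CPM in control, from 724, 843 and 2039 reads, and at 22.4, 14.4 and 38.2 CPM in AMD3100, from 389, 156 and 311 reads. In both groups replicate 3 was the highest, and even so the highest AMD3100 library was below the lowest control library. The log2 fold change was -2.13 (SE 0.57), which is 4.38-fold lower, between means of 109 ± 81.4 and 24.99 ± 12.1 CPM (SD, n = 3 each). It depended in size on control replicate 3, without which it was -1.31, and with replicate 3 of both groups left out it was -1.76. In same-numbered pairs of libraries, the log2 ratio of AMD3100 to control was -1.49, -2.08 and -2.41. When replicate number was added to the edgeR model as a block, the log2 fold change of Mt2 was -2.00 (SE 0.21, edgeR adjusted p = 0.0400), and Mt2 was 1 of 3 genes, 0.022% of those tested, with an adjusted p under 0.05. Whether replicate numbers 1 and 2 pair the tubes could not be told, so the block rests on a pairing that was not established. The adjusted p of Mt2 was 1.0 in edgeR without the block and between 0.0161 and 1.0 over the alternatives tried. That of Mt1 was between 0.0863 and 1.0 over the same alternatives, and its log2 fold change with the block was -1.25 (SE 0.22). Both lowest values came from edgeR with the block on replicates 1 and 2 only, a fit added after the data were seen. Among the other alternatives the lowest edgeR adjusted p was 0.0400 for Mt2 and 0.214 for Mt1, both with the block on all libraries.

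**Figure D1:**
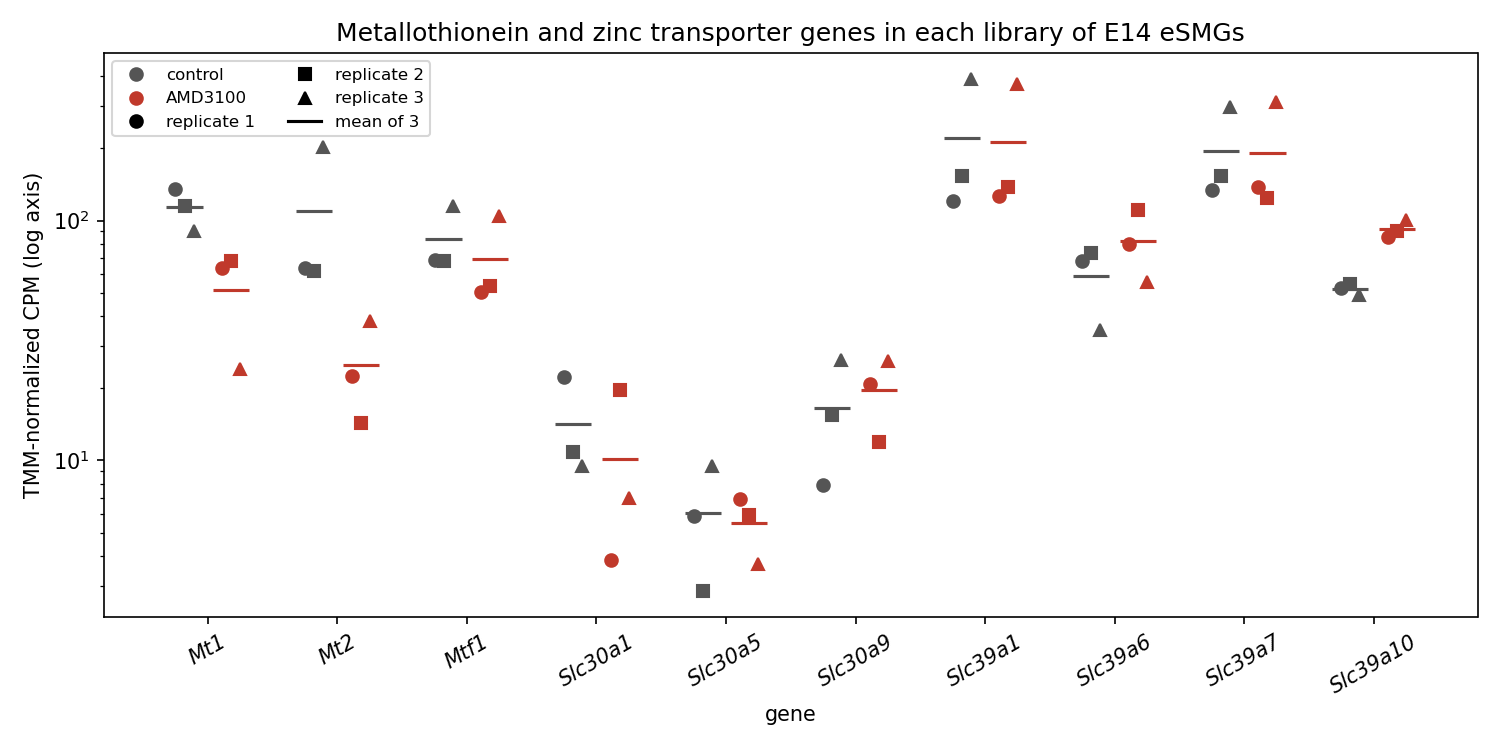
TMM-normalized CPM (log axis) of the 10 genes in each library, with control in grey, AMD3100 in red, a symbol per replicate number and a bar for the mean of 3. The red symbols of Mt1 and Mt2 all lie below the grey, and those of Slc39a10 all lie above. The triangles of replicate 3 lie apart in both groups for Mt2, Mtf1, Slc39a1 and Slc39a7 (high) and for Slc39a6 (low).

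Together, Mt1 and Mt2 made up 199, 177 and 294 CPM in control and 85.5, 81.9 and 62.1 CPM in AMD3100 (223 ± 62.4 and 76.5 ± 12.6, SD, n = 3 each). Their proportion differed with the replicate number. The ratio of Mt2 to Mt1 was 0.467, 0.532 and 2.24 in control and 0.355, 0.213 and 1.59 in AMD3100, so Mt2 was the more abundant in both replicate 3 libraries and Mt1 in the other 4. Within each replicate number the ratio was lower with AMD3100. Reads of Mt1 and Mt2 can be told apart. Of 11 reads simulated along the 3′ end of each, 0 matched another place in the mouse genome (NCBIM37), and no annotated gene lies on the opposite strand there. The nearest relatives, Mt3 and Mt4, were almost silent. Mt3, a metallothionein of the brain, had 0, 14 and 3 reads in control and 7, 0 and 3 in AMD3100, and Mt4, of stratified epithelia, had 0 in every library, which allows up to 0.368 CPM at 3 reads in the smallest library (this floor covers counting error only).

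The genes lie next to each other on chromosome 8 (GRCm38.p6), Mt2 at chr8:94172618-94173567 and Mt1 at chr8:94178883-94180327, on the same strand with 5315 bases between them. Their promoter windows are shown because both carry the core of the metal response element, the sequence MTF1 binds, and because Slc30a1, at chr1:191906697-191913248, carries it too, while its libraries overlapped between the groups. The sequences are from RefSeq (GRCm38.p6, plus strand), from 250 bases before the start site of the RefSeq promoter table to 30 after it, at chr8:94178839-94179118 for Mt1, chr8:94172368-94172647 for Mt2 and chr1:191906531-191906810 for Slc30a1. For Mt2 this start site is the first base of the gene span given above, while for Mt1 (94179089) and Slc30a1 (191906781) it lies 206 and 84 bases inside the span, so that part of those windows lies within the annotated gene. Capitals mark each core, spelled TGCACNC or TGCGCNC and searched on both strands. A core on the opposite strand appears as its reverse complement, and the last core of Slc30a1 lies past the end of the printed stretch.
Mt1: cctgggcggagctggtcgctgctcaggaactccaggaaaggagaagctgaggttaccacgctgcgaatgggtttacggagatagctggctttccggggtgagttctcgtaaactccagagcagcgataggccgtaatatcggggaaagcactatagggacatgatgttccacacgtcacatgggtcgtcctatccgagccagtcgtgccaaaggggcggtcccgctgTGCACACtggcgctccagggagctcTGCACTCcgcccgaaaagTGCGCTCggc
Mt2: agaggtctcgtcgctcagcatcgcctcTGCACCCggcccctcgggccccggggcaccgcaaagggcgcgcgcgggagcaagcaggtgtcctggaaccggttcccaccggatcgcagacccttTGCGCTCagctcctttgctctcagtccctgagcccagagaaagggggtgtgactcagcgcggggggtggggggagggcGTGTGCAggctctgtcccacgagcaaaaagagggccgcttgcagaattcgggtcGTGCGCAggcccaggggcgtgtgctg
Slc30a1: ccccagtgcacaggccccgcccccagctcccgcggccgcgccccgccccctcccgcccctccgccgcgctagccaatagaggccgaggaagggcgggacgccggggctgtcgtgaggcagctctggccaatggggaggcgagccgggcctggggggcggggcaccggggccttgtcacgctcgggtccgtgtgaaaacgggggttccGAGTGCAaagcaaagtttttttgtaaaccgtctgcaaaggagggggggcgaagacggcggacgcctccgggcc

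In the full RefSeq windows, which run on to 50 bases after the start, Mt2 held 4 cores, beginning at -223, -128, -50 and 5 counted from that start site. Mt1 held 3, beginning at -23, 3 and 21, and Slc30a1 held 2, beginning at -43 and 31. No 2 of these cores overlapped. Over the 32851 promoter windows of the same length in the RefSeq table, 25.7% held at least 1 core, 7.11% at least 2, 1.97% at least 3 and 0.517% at least 4. Of the 9 genes with a window (Slc39a6 was not matched), Slc30a5 also held 1 core, and Mtf1, Slc30a9, Slc39a1, Slc39a7 and both starts of Slc39a10 held 0 in this window. A match to these letters is a description of the sequence and not a bound site.

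**Figure D2:**
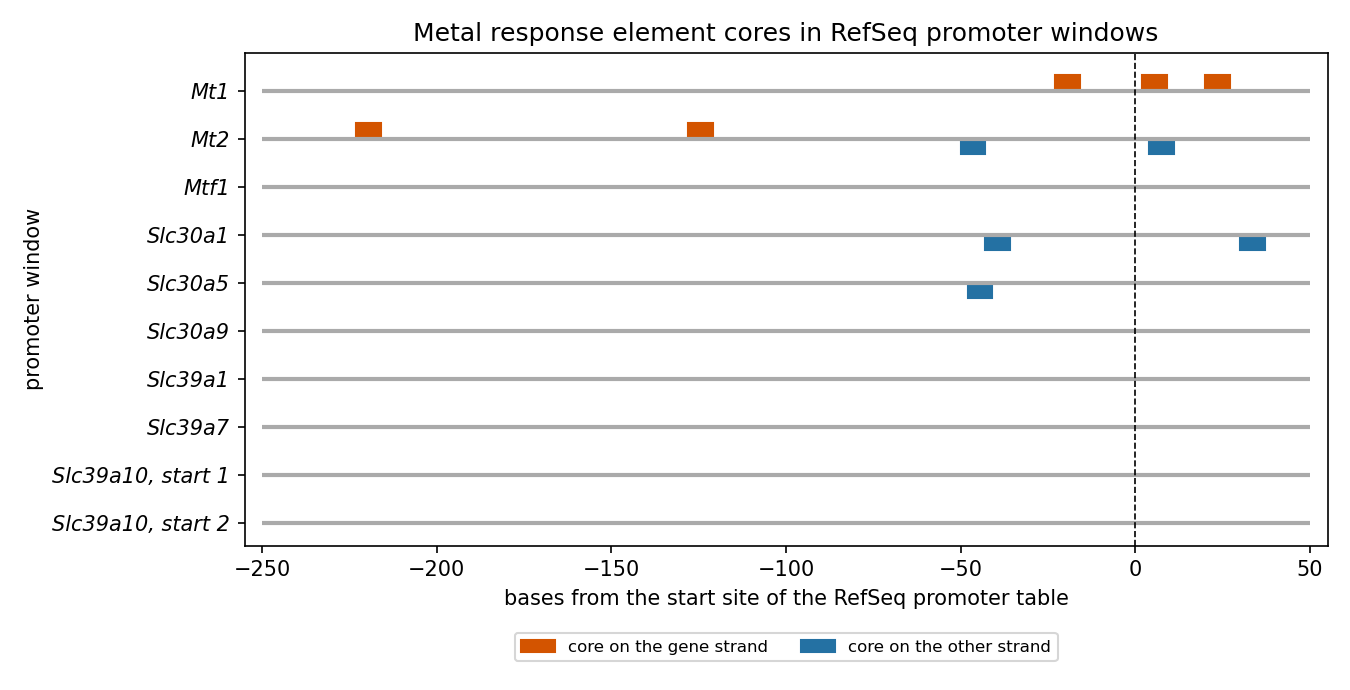
Positions of metal response element cores (TGCACNC or TGCGCNC) in the promoter windows of the genes, in bases from the start site of the RefSeq promoter table, with orange boxes for the gene's strand and blue boxes for the other. Mt2 holds 4, Mt1 3, Slc30a1 2 and Slc30a5 1, and the other windows are empty.

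Mtf1 encodes the zinc-sensing factor itself. Its mRNA stood at 68.7, 68.0 and 115 CPM in control and at 50.2, 53.1 and 105 CPM in AMD3100. Replicate 3 was high in both groups, and the groups overlapped. Each AMD3100 library was below its same-numbered control, with log2 ratios of -0.45, -0.36 and -0.14, as were those of 14.6% of all genes tested in all 3 pairs. The fitted log2 fold change was -0.28 (SE 0.39), and it was -0.41 without replicate 3 of both groups and -0.32 with the replicate block. It was -0.72 without AMD3100 replicate 3 alone and 0.03 without control replicate 3 alone. Another gene, 1110065P20Rik, lies on the opposite strand over the 3′ end of Mtf1, and the sources used here do not say whether reads were counted by strand.

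Among the zinc exporters, Slc30a1, the exporter of the cell surface and a classical MTF1 target, had no common direction. It stood at 22.3, 10.9 and 9.47 CPM in control and at 3.86, 19.6 and 7.0 CPM in AMD3100. Control replicate 1 and AMD3100 replicate 2 were high, and the groups overlapped. The log2 fold change was -0.49 (SE 0.64), was -0.52 without replicate 3 of both groups, and lay between -1.39 without AMD3100 replicate 2 and -0.01 without control replicate 1. Slc30a5, which supplies zinc to enzymes of the secretory pathway, was the least abundant of the 10. It had 5.87, 2.84 and 9.47 CPM in control and 6.91, 5.90 and 3.68 CPM in AMD3100, overlapping throughout, with a log2 fold change of -0.13 (SE 0.64) that was 0.55 without replicate 3 of both groups, 0.34 without control replicate 3 and -0.48 without control replicate 2. Slc30a9, a zinc exporter of mitochondria, stood at 7.88, 15.5 and 26.3 CPM in control and at 20.9, 12.0 and 25.9 CPM in AMD3100, again overlapping. Its log2 fold change was 0.24 (SE 0.50), with 0.48 without replicate 3 of both groups, 0.75 without control replicate 3 alone and -0.10 without control replicate 1.

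Among the zinc importers, the groups did not overlap for Slc39a10, a ZIP protein of the cell surface. Its gene (chr1:46807544-46925776, GRCm38.p6) stood at 52.2, 54.2 and 48.9 CPM in control, from 596, 744 and 490 reads, and at 85.2, 90.5 and 100.3 CPM in AMD3100, from 1479, 982 and 817 reads. The libraries of each group lay close together, replicate 3 included, and the lowest AMD3100 library was well above the highest control library, as 3.28% of all genes tested had no overlap in this direction. The means were 51.7 ± 2.69 and 92.0 ± 7.68 CPM (SD, n = 3 each), and the fitted difference on the log2 scale was 0.83 (SE 0.26), which is 1.78-fold higher. Leaving out any single library kept it between 0.75 and 0.88. However, 8 of the 11 reads simulated from the 3′ end of Slc39a10 matched other places in the genome within 1 mismatch, so how the counting treated such reads bears on its level.

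Slc39a6, which forms a complex with SLC39A10 at the cell surface, was higher with AMD3100 in all 3 same-numbered pairs, with log2 ratios of 0.24, 0.59 and 0.66, as were 15.7% of all genes tested. It stood at 67.5, 73.4 and 35.0 CPM in control and at 80.0, 111 and 55.4 CPM in AMD3100. Replicate 3 was low in both groups, and AMD3100 replicate 3 lay below control replicates 1 and 2, so the groups overlapped. The log2 fold change was 0.48 (SE 0.38) and with the replicate block 0.50 (SE 0.17). Without AMD3100 replicate 2 it was 0.21, without control replicate 3 it was 0.22, and without AMD3100 replicate 3 it was 0.69.

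Slc39a1 and Slc39a7 were the most abundant of the 10 genes and had similar means in both groups. Slc39a1, a zinc importer found in most cells, stood at 120.3, 153 and 390.3 CPM in control and at 126, 138 and 371 CPM in AMD3100 (log2 fold change -0.06, SE 0.56). Of its 11 simulated reads, 6 matched other places. Slc39a7, which releases zinc from the endoplasmic reticulum and Golgi, stood at 134, 153 and 299 CPM in control and at 138, 125 and 313 CPM in AMD3100 (log2 fold change -0.03, SE 0.46). Both were high in replicate 3 of either group. The widest log2 ratio between same-numbered libraries was -0.15 for Slc39a1 and -0.30 for Slc39a7, both in replicate 2. With replicate 3 of both groups left out the log2 fold change was -0.06 for Slc39a1 and -0.14 for Slc39a7. With only 1 of the replicate 3 libraries left out it moved either way. Without control replicate 3 the log2 fold change was 0.64 for Slc39a1 and 0.43 for Slc39a7, and without AMD3100 replicate 3 it was -0.76 and -0.59.

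**Figure D3:**
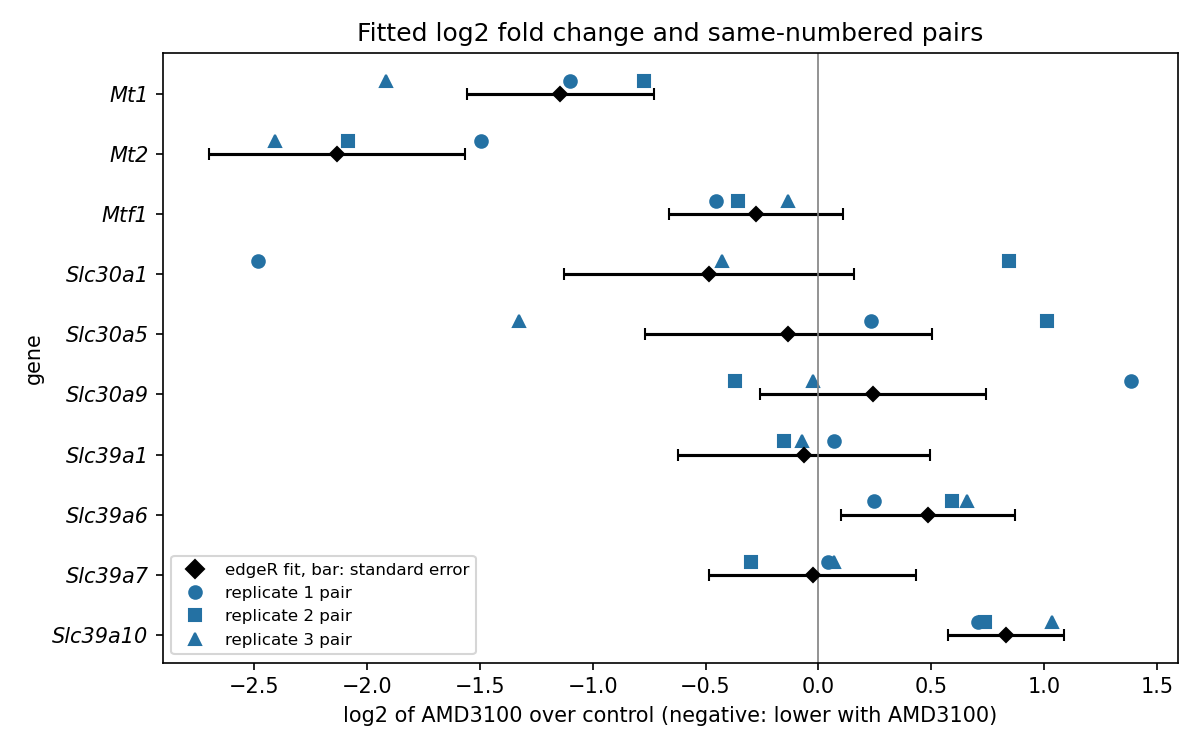
Log2 of AMD3100 over control for the 10 genes, with black diamonds for edgeR's fit, bars for its SE, and blue symbols for the 3 same-numbered pairs of libraries. The 3 pairs share a side of 0 for Mt1, Mt2 and Mtf1 (lower) and for Slc39a6 and Slc39a10 (higher), and are spread over both sides for the rest.

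By mean level in control, the order was Slc39a1 (221 CPM), Slc39a7 (195), Mt1 (114), Mt2 (109), Mtf1 (84.0), Slc39a6 (58.6), Slc39a10 (51.7), Slc30a9 (16.6), Slc30a1 (14.2) and Slc30a5 (6.06). Every neighbour in this order overlapped the next over the 3 libraries, other than Slc39a10, whose lowest control library was above the highest of Slc30a9. In AMD3100-treated eSMGs Slc39a10 was at rank 3 (92.0 CPM), below Slc39a7 without overlap, while Mt1 was at rank 6 (51.5 CPM) and Mt2 at rank 7 (24.99 CPM). Per library, Slc39a10 had between 0.166 and 0.307 times the summed level of Mt1 and Mt2 in control and between 0.996 and 1.61 times in AMD3100. These genes were chosen with this comparison in view, so the ratio is only a description. Both the ratio and the rank of Slc39a10 depend on how the counting treated its reads, since 8 of 11 simulated ones matched elsewhere.

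In edgeR's quasi-likelihood test over the 13610 genes, 228 had an unadjusted p-value under 0.05, which is 1.68% of those tested (0.397% higher and 1.28% lower with AMD3100), and 0 had an adjusted p-value under 0.05. DESeq2, run on the 18307 genes with at least 1 read, gave 5 genes (0.0273% of those) at an adjusted p under 0.05. Mt1, Mt2 and Slc39a10 were among the 228 genes, 3 of the 10, and since the genes were chosen with this comparison in view nothing is read from that count. The 3 control and 3 AMD3100 libraries did not overlap for 7.44% of the genes tested, 3.28% higher and 4.17% lower with AMD3100. With the replicate block 6.66% of genes had an unadjusted p under 0.05, and Slc39a6 joined the 3. The median log2 fold change of the 10 genes was -0.10, beside 0.02 for all genes tested.

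The other zinc transporters were then counted. Of 7 further SLC30 genes 3 were tested, of 10 further SLC39 genes 8 were tested, and 0 of these 11 had an unadjusted p under 0.05 in edgeR, beside 1.68% of all genes, with 6 higher, 5 lower and a median log2 fold change of 0.01. Slc30a4, an exporter that loads vesicles with zinc, was the most abundant of the exporters at 27.6, 33.1 and 29.1 CPM in control and 49.5, 30.7 and 35.2 CPM in AMD3100 (log2 fold change 0.36, SE 0.31). Slc30a7, of the Golgi, had a log2 fold change of 0.01 (SE 0.53), which lay between -0.62 and 0.44 with a library left out. The most abundant of the further importers were Slc39a11, with a log2 fold change of 0.06 (SE 0.47), and Slc39a9, at 25.5, 27.2 and 25.6 CPM in control and 26.9, 28.1 and 22.4 CPM in AMD3100 (log2 fold change -0.02, SE 0.29). Slc39a8, which also carries manganese, was the only one of the 11 whose groups did not overlap, beside 4.17% of all genes that were lower without overlap. It had 54, 39 and 32 reads in control and 37, 0 and 16 in AMD3100, with a log2 fold change of -1.38 (SE 1.32). Without AMD3100 replicate 2, the library with 0 reads, it was -0.80, without AMD3100 replicate 1 it was -1.87, and with the replicate block it was -2.11 (SE 1.55).

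Of the other genes known as MTF1 targets, all 6 on the list were tested. Of these, 3 were higher and 3 lower, with a median log2 fold change of 0.10. None had groups apart and 0 had an unadjusted p under 0.05 in edgeR, where 7.44% and 1.68% of all genes did, so nothing is read from either count in a list of this size. Csrp1, a LIM domain protein of the actin cytoskeleton and the most abundant, stood at 156, 176 and 376 CPM in control and at 124, 169 and 316 CPM in AMD3100 (log2 fold change -0.22, SE 0.46), with 2 of its 11 simulated reads matching elsewhere. Selenoh, a selenoprotein listed in the files as 2700094K13Rik, had a log2 fold change of 0.27 (SE 0.31).

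Copper is the other metal that metallothioneins hold in cells. Of 12 copper-handling genes 11 were tested and 0 had an unadjusted p under 0.05 in edgeR, beside 1.68% of all genes, and the groups did not overlap for 2, Sco1 and Slc31a1, beside 7.44% of all genes (median log2 fold change 0.02). The most abundant, Sod1, the copper and zinc superoxide dismutase, and Atox1, a copper chaperone, had log2 fold changes of 0.14 and 0.19 (SEs 0.48 and 0.31), with 4 of 11 simulated Sod1 reads matching elsewhere. With a library left out the log2 fold change of Sod1 lay between -0.35 and 0.75. Its log2 ratios in same-numbered pairs were 0.24, 0.29 and 0.04. Sco1, which hands copper to cytochrome c oxidase, was lower without overlap, at 20.4, 21.6 and 20.8 CPM in control and 7.03, 15.0 and 12.8 CPM in AMD3100 (log2 fold change -0.86, SE 0.39). Slc31a1, the main copper importer, was higher without overlap but by little, at 33.3, 33.0 and 37.6 CPM against 38.3, 38.7 and 41.8 CPM (log2 fold change 0.19, SE 0.27), and Cdc26 lies over its 3′ end on the other strand. Cox17, another chaperone on the way to cytochrome c oxidase, is named after its values were seen. It stood at 5.25, 11.7 and 77.5 CPM in control and at 1.90, 2.95 and 15.0 CPM in AMD3100, lower in all 3 same-numbered pairs (log2 ratios of -1.39, -1.93 and -2.36) although the groups overlapped. Its log2 fold change was -2.27 (SE 1.08), and -1.97 with the replicate block (SE 0.32). With replicate 3 of both groups left out it was -1.82, and with 1 of those libraries left out it was -0.36 (without control replicate 3) or -3.73 (without AMD3100 replicate 3).

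Of 11 iron-handling genes, all tested, 0 had an unadjusted p under 0.05 in edgeR and all overlapped between the groups (median log2 fold change 0.04). Fth1 and Ftl1, the ferritin chains that store iron, had log2 fold changes of -0.04 and 0.08 (SEs 0.39 and 0.29), and 8 of 11 simulated Ftl1 reads matched elsewhere. Metallothioneins are also induced by oxidative stress and by glucocorticoids. Of 12 oxidative stress genes, all tested, 1 had an unadjusted p under 0.05 in edgeR. This was Gsr, glutathione reductase, at 8.93, 11.1 and 23.4 CPM in control and 5.36, 1.47 and 6.51 CPM in AMD3100, without overlap (log2 fold change -1.70, SE 0.65, edgeR adjusted p = 1.0). Without control replicate 3 the log2 fold change of Gsr was -1.16 and without AMD3100 replicate 2 it was -1.28, both with an unadjusted p over 0.05 in edgeR. The most abundant of this list, Keap1 and Nfe2l2, which encode the sensor and the factor of the response, had log2 fold changes of 0.36 and 0.16 (SEs 0.31 and 0.38), and Gm16754 lies on the other strand over the 3′ end of Keap1. Of 10 glucocorticoid response genes, all tested, 0 had an unadjusted p under 0.05 in edgeR. Tsc22d3 and Klf9 had log2 fold changes of 0.21 and 0.28 (SEs 0.29 and 0.64). Zbtb16, a transcription factor gene induced by glucocorticoids, was higher without overlap, from 0, 13 and 8 reads in control to 72, 27 and 24 in AMD3100 (log2 fold change 2.44, SE 1.39). Counted once each, the listed genes outside the 10 came to 59 tested, of which 1 had an unadjusted p under 0.05 in edgeR, beside the 1.68% of all genes, and 0 had an adjusted p under 0.05. The groups did not overlap for 5 of the 59 (2 higher and 3 lower), beside 7.44% of all genes. With the replicate block 7 of the 59 had an unadjusted p under 0.05, beside 6.66% of all genes. They were Cox17, Sco1 and Commd1 (lower) of the copper list, Slc11a2 (higher) of the iron list, and Gsr (lower), Keap1 and Nqo1 (higher) of the oxidative stress list.

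**Figure D4:**
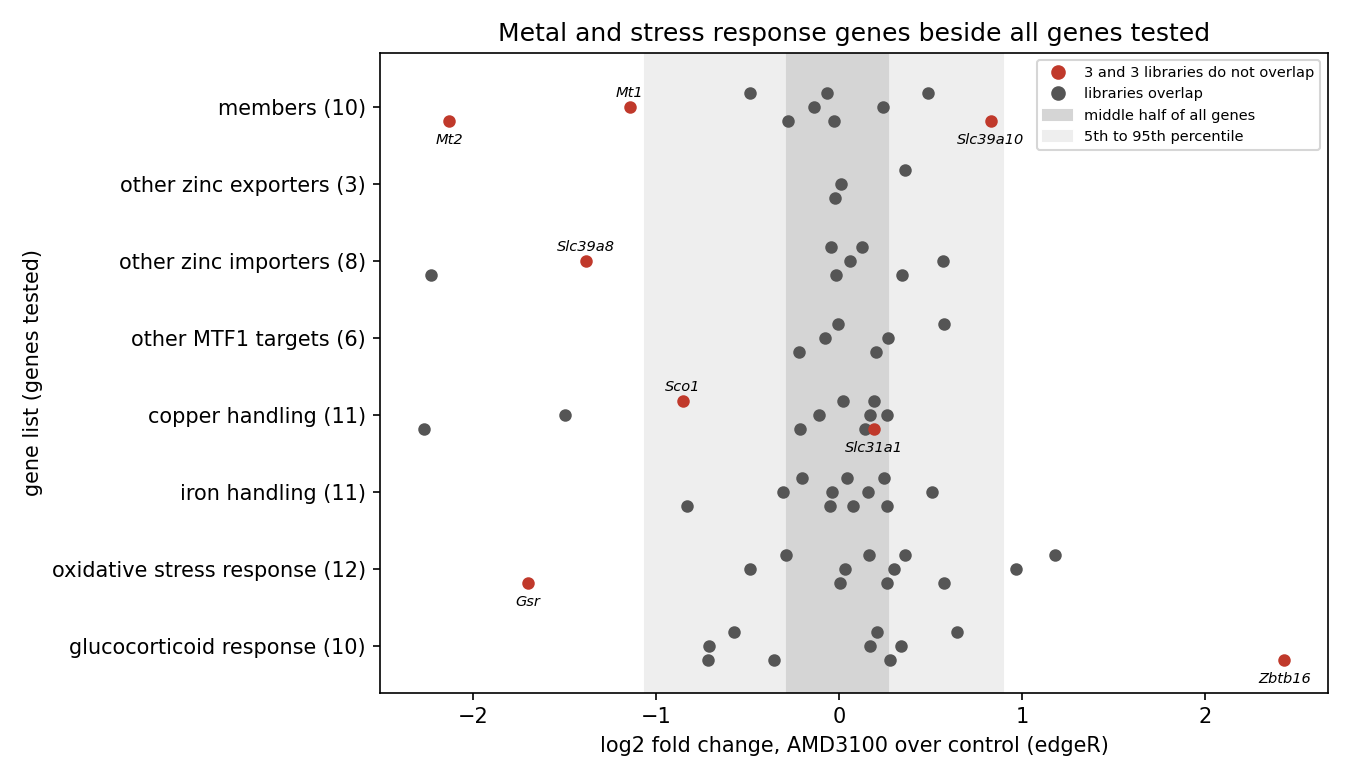
Log2 fold change (edgeR, AMD3100 over control) of each tested gene of the 10 (members) and of the other lists, with genes whose libraries do not overlap between the groups in red and named. The light band runs from the 5th to the 95th percentile of the 13610 genes tested (-1.06 to 0.90) and the dark band from the 25th to the 75th (-0.28 to 0.27), and Mt1 and Mt2 lie to the left of both. So do Slc39a8, Slc39a14, Cox17, Commd1 and Gsr of the other lists, while Nqo1, Osgin1 and Zbtb16 lie to the right of both.

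The genes whose course over the 6 libraries was most like that of Mt1 and Mt2 were found by the root mean square difference of mean-centred log2 CPM over the 13609 other genes tested. Nearest to Mt1 were Ssfa2 (difference 0.08), Pkdcc (0.22), Tbc1d9 (0.23), 1190007I07Rik (0.24) and Dnajb9 (0.24). In AMD3100 replicate 3, Ssfa2, Tbc1d9, 1190007I07Rik and Dnajb9 stood at 1.35, 2.46, 1.47 and 1.60 CPM, so their likeness rests on few reads there. Pkdcc, which encodes a secreted kinase, stood at 40.8, 42.0 and 32.2 CPM in control and at 14.7, 18.4 and 6.63 CPM in AMD3100. Nearest to Mt2 were Fabp7 (0.30), Snrpf (0.33), Prkci (0.38), Gsr (0.39) and Unc50 (0.41). Fabp7, a fatty acid binding protein of neural progenitors, stood at 12.1, 16.9 and 47.2 CPM in control and at 5.53, 5.44 and 10.7 CPM in AMD3100. Mt1 and Mt2 were not near each other by this measure, at a difference of 1.19, with Mt2 ranked 9365th for Mt1 and Mt1 ranked 4035th for Mt2. After the mean of each replicate number was taken off, which removes the shift of replicate 3, their difference was 0.42, and the ranks were 510 and 84. Most of the nearest genes then changed. Of the 5 named for Mt1, 1 stayed (Ssfa2), and of the 5 named for Mt2, 2 stayed (Snrpf and Prkci). Cox17 was then nearest to Mt2 (0.05).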

How the data were processed

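The authors deposited raw read counts per gene symbol, 1 file per library, without normalization. The submitters' processing notes name Bowtie2, edgeR and mm10, and the study's methods give 50 bp single reads of 3′ mRNA libraries. The counter and annotation are not given in the sources used here. Of 23282 lines, 22 that repeated another were left out. Depth was 9051595 to 14393031 counts per library.

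Counts were fitted with edgeR 4.0.16 (R 4.3.3): TMM, filterByExpr, glmQLFit and glmQLFTest with group alone, Benjamini-Hochberg over 13610 genes. Standard errors come from the coefficient and its F. Values are TMM-normalized CPM. Log2 CPM used a prior count of 2. The fits were tested on simulated data. The study's methods name quantile normalization, which was tried as an alternative with limma-voom (limma 3.58.1). The other alternatives were DESeq2 1.42.0, upper quartile normalization, other filters on low counts, the replicate number as a block, replicates 1 and 2 only, Rn45s left out, and each library left out.

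The labels give both groups replicate numbers 1 to 3. Deviations from the group mean of same-numbered libraries correlated across genes at 0.185, 0.171 and 0.584, and those of unlike numbers at -0.351 to 0.198. Only the replicate 3 libraries stood out. Control replicate 2 correlated with AMD3100 replicate 1 at 0.198, and control replicate 1 with AMD3100 replicate 2 at 0.146. Whether numbers 1 and 2 pair the libraries therefore could not be told, and the main fit left replicate number out. Same-numbered pairs are given as a description.

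Reads of 50 bases, every 25 bases over the last 300 of each transcript (GENCODE vM1), were aligned to NCBIM37 with minimap2 2.31-r1302. Promoters are from RefSeq, GRCm38.p6.

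The genes, lists and alternatives were chosen with earlier results of these data known. Named were all 10 genes, and from each list those with an unadjusted p under 0.05, those whose groups did not overlap and the 2 most abundant, and the 5 genes most like Mt1 and Mt2. Also named were listed genes and markers with an unadjusted p under 0.05 in edgeR with the replicate block. Cox17 was described after its values were seen. Protein sequences were not used here. Summed markers of endothelium, nerve and glia, erythroid cells and macrophages overlapped between the groups (means of 28.6 and 26.5, 524 and 556, 8280 and 6647, and 60.3 and 62.1 summed CPM in control and AMD3100). Of the markers tested, 1 was higher and 3 lower for endothelium, 4 and 3 for nerve and glia, 0 and 7 for erythroid cells, and 5 and 1 for macrophages. The median log2 fold changes were -0.56, 0.01, -0.54 and 0.13 in that order.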

Additional observations from a re-analysis of the deposited data

How the results depend on the processing

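Over 15 alternatives, Mt1 and Mt2 were lower and Slc39a10 and Slc39a6 higher with AMD3100 in each, and Slc30a1 was lower. The sign was kept in 14 of the 15 for Mtf1, 13 for Slc30a9, 12 for Slc39a1 and Slc39a7 and 10 for Slc30a5. When 1 library at a time was dropped, the range of log2 fold changes was -1.38 to -0.81 for Mt1, -2.59 to -1.31 for Mt2 and 0.75 to 0.88 for Slc39a10. With replicates 1 and 2 only, and with the replicate block on those 4 libraries (added after seeing the data), the log2 fold change of Slc39a10 was 0.72 in both, and that of Slc30a5 was 0.55 and 0.63. Genes with an adjusted p under 0.05 numbered 0 in edgeR, 5 with DESeq2, 3 with the replicate block and 10 with the block on replicates 1 and 2. At an unadjusted p under 0.05 there were 228, against 479 with DESeq2, 907 with the replicate block, 798 with replicates 1 and 2, 887 with both, and 163 to 547 with a library left out. Listed genes outside the 10 at that level numbered 1, against 5 with DESeq2, 2 with upper quartile normalization, 4 with limma-voom, 3 without a filter, 7 with the replicate block, 4 with replicates 1 and 2, 4 with both, and 1 to 3 with a library left out. Adding replicate number as a block changed no adjusted call of the 10 genes other than Mt2, and at an unadjusted p it added Slc39a6. Between 2 and 3 of the 10 genes had an unadjusted p under 0.05 with a library left out (2 without control replicate 1, where Mt1 did not). Leaving out Rn45s or asking for at least 10 counts in every library moved no value of the 10 genes by more than the spread between replicates. With the looser core TGCNCNC, which 51.0% of promoters hold, Mt2 held 6 cores, Mt1 3 and Slc30a1 2. After the replicate-number mean was taken off, 1 of the 5 genes most like Mt1 and 2 of the 5 most like Mt2 were shared. The causes were not tested. Depth limits Slc30a5 and Slc39a8, with as few as 30 and 0 reads in a library.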
